A study of Mus musculus with 2 samples.

Results

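Histone genes were described in mouse neural stem cell colonies. All rows of the deposited count table were taken whose symbol starts with Hist1h, Hist2h, Hist3h, Hist4h, H2af, H3f or H1f and that had at least 20 unique molecular identifiers (UMIs, 1 per captured RNA molecule) over the kept cells. The table held 72 such symbols among 19144 genes, and 36 reached the minimum. Of these, 25 are counted as replication-dependent genes (4 of H1, 14 of H2A, 4 of H2B, 1 of H3 and 2 of H4). A further 10 are variant genes (2 of H1, 6 of H2A and 2 of H3), and 1, Hist1h2al, is annotated as a pseudogene. The first 2 classes follow the symbol, with Hist symbols taken as replication-dependent, so the testis-type H2A gene Hist1h2aa is among the 25. The other 36 symbols were sparse, with 244 UMIs between them (2 of H1, 3 of H2A, 12 of H2B, 9 of H3 and 10 of H4). Just inside the minimum were Hist1h2ap with 22 UMIs, Hist1h2ai with 24 and Hist1h1d with 25, and just outside were Hist1h3d and Hist1h2ao with 17 each and Hist2h2bb with 14.

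Cells came from the forebrain of embryonic CD1 mice, from the walls of the lateral ventricles, and were grown as floating primary neurospheres. The medium held LIF, the leukemia inhibitory factor, at 10 ng/mL, a cytokine used to culture primitive neural stem cells. The protocol counted colonies of 50 μm or more and names a further additive, EFH, which it does not explain. Colonies were dissociated and profiled by Drop-seq, in which beads with oligo-dT primers capture polyadenylated RNA in droplets; the series text speaks of nuclei and the sample protocol of cells. The labels list 2 samples of the same group, and no column assigns the 4000 barcodes to either, so all values are from 1 sample without replicates, and no test could be made between samples.

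The table held 17591915 UMIs. Of the 4000 barcodes, 3765 (94.1%) had at least 500 genes and at most 10% mitochondrial UMIs and are called cells here; they held 17395968 UMIs, with a median of 3869 per cell (range 638 to 54060). Markers of radial glia, the neural stem cells of the embryonic brain, summed to 14143 CPM (UMIs scaled to a total of 1000000), whereas markers of microglia, endothelium and mural cells or fibroblasts summed to 1.15, 4.71 and 2.01 CPM. All intervals below are 95% intervals (exact Poisson for a level, exact binomial for a share, exact conditional binomial for a ratio of levels), and they cover counting error only.

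Histones package DNA into nucleosomes, whose core is built of H2A, H2B, H3 and H4, while H1 binds the linker between them. Replication-dependent genes lie mostly in clusters, lack introns, and are transcribed in S phase to supply newly copied DNA. Their mRNAs end in a conserved stem loop bound by SLBP and are normally not polyadenylated, whereas variant genes give ordinary polyadenylated mRNAs throughout the cycle and in cells that have left it. A method that primes on poly(A) therefore sees only those replication-dependent transcripts that carry a poly(A) tail or an internal stretch of A.

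The stem loop is shown first because it is what sets the ordinary end of a replication-dependent mRNA. A 16-base stem loop with fully paired arms of 6 bases was found in the longest annotated transcript of 15 of the 25 replication-dependent genes, and 11 of those shared the same letters. It was also found in 1 of the 10 variants, H2afx, which is known to give both kinds of mRNA. The windows hold the stem loop in capitals with 5 bases on each side, 5′ to 3′ on the gene's strand (GENCODE M21, mm10). The first 3 are Hist1h2ab, whose annotated transcript ends 11 bases after the stem loop, Hist1h1c, annotated for 840 bases beyond it, and Hist3h2a, for 1643. The others show the stem loops of Hist3h2ba (169 bases beyond), Hist1h1e (1153), the H3 gene Hist1h3c (74), the H4 gene Hist1h4i (330) and H2afx (822).
Hist1h2ab (chr13:23751567-23751592, +): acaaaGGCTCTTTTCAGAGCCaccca
Hist1h1c (chr13:23739507-23739532, +): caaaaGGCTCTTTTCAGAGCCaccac
Hist3h2a (chr11:58955167-58955192, +): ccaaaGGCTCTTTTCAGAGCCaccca
Hist3h2ba (chr11:58949344-58949369, +): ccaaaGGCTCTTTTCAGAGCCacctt
Hist1h1e (chr13:23621777-23621802, −): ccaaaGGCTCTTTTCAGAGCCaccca
Hist1h3c (chr13:23745042-23745067, −): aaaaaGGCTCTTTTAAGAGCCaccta
Hist1h4i (chr13:22040961-22040986, −): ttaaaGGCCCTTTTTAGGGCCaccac
H2afx (chr9:44335235-44335260, +): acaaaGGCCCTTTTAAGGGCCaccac

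A poly(A) signal, searched as AATAAA or ATTAAA in the last 50 bases of an annotated transcript, was present in 8 of the 25 replication-dependent genes and absent from 17. Of the 8 with a signal, 7 also held the stem loop, as did 8 of the 17 without. The annotation limits this split: 6 of the 25 models, among them Hist1h2ak, Hist1h2an and Hist1h1b, stop at the end of the coding sequence, and the bases downstream were not read because no genome sequence was used.

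The promoters of 32 of the 36 genes were matched in RefSeq (GRCm38.p6, the base assembly of mm10; 250 bases before to 50 after the start); H2afx, Hist1h2bc, Hist2h2be and Hist1h2al were not. Searched on both strands, CCAAT was present in all 16 promoters of the matched replication-dependent genes without a poly(A) signal, in 5 of 7 with a signal, in 6 of 9 variants and in 37.4% of all 32817 promoters of this length. TATAAA was present in 11 of the 16, 3 of the 7, 1 of the 9 and 13.6% of all promoters. The octamer ATTTGCAT, known from H2B promoters as a site of Oct factors, was in 5 of the 16, 2 of the 7, 1 of the 9 and 1.74% of all, and TTTGAA, the core of the cell cycle genes homology region, in 10 of the 16, 3 of the 7, 1 of the 9 and 17.9% of all. A match describes letters and is not evidence of binding. The promoters of Hist1h2ak and Hist3h2a are printed because these genes differed in the S-phase comparison below, with the motifs of either strand in capitals. Hist1h2ak had the TATA motif, the CCAAT motif and the homology region core. Hist3h2a had the CCAAT motif, the octamer and the homology region core, but no exact match to TATAAA. Other forms of the TATA motif were not searched, so the pair is not a contrast of promoters with and without one. A link between these motifs and the S-phase difference was not tested.
Hist1h2ak (chr13:21753863-21754162, −): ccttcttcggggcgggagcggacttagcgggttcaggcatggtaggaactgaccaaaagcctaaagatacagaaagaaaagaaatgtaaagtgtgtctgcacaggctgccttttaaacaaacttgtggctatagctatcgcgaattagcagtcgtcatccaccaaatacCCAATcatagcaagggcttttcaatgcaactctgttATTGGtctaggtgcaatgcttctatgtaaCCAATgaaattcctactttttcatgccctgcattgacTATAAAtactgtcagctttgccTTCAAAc
Hist3h2a (chr11:58954435-58954734, +): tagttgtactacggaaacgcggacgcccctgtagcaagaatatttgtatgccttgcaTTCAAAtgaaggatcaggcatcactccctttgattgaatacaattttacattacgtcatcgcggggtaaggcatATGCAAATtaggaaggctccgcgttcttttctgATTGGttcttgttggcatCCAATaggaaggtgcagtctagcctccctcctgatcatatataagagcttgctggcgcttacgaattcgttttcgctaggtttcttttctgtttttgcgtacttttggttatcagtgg

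Variants supplied most histone UMIs. The 36 genes summed to 58566 UMIs, or 3367 CPM, of which the 10 variants had 47461 UMIs, or 2728 CPM (2704 to 2753). The 25 replication-dependent genes had 5623 UMIs, or 323 CPM (315 to 332), and Hist1h2al alone had 5482, or 315 CPM (307 to 324). CPM counts captured molecules and is not divided by transcript length. A variant UMI was seen in 98.0% of cells, a replication-dependent UMI in 59.2% and a Hist1h2al UMI in 35.9%. After each cell of at least 1000 UMIs was thinned at random to 1000 (3576 cells, with 189 shallower ones left out), 27.0% of cells (25.5 to 28.4) held a replication-dependent UMI.

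Among the replication-dependent genes, 3 held most of the UMIs. Hist1h2bc, an H2B gene, had 1140 UMIs (65.5 CPM), Hist3h2a, an H2A gene, 1086 (62.4 CPM), and Hist1h1c, encoding linker histone H1.2, 1078 (62.0 CPM); their intervals overlap. Next were the H2A gene Hist1h2ak with 428 UMIs (24.6 CPM), the H2B gene Hist3h2ba with 392 (22.5 CPM), Hist1h1e, encoding H1.4, with 259 (14.9 CPM), and the H2A gene Hist1h2an with 228 (13.1 CPM). The testis-type H2A gene Hist1h2aa had 164 and Hist1h4i 158. The other 16 had 22 to 72 UMIs each.

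By family the replication-dependent levels were unequal. H2A genes summed to 135 CPM, H2B to 92.7 and H1 to 82.4, but H4 to 10.7 CPM, of which Hist1h4i held most, and H3 to 2.18 CPM from Hist1h3c alone with 38 UMIs. The sums cover only genes that reached the minimum, so they understate the families, H3 most of all. Of the 9 H3 symbols left out, Hist1h3d had 17 UMIs, Hist1h3g 13 and Hist2h3c2 12, and 10 H4 symbols were left out too. The family sums are levels of captured RNA and do not measure transcription or protein.

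Copies of histone genes are alike, so single-gene counts are uncertain. Over the 25 replication-dependent genes, the median share of a transcript's 50-base words that also occurred in another gene was 32.0% (range 0 to 93.1%), and 8 of the 25 shared over 50%, against 0 of the 10 variants. Hist1h2ap, Hist1h2ah, Hist1h2ai and Hist1h2an were among the most alike. Hist3h2a also overlaps Trim17, and Hist1h1e overlaps Hist1h2be, both on the same strand, so reads of these pairs cannot be told apart where they overlap.

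Hist1h2al needs this caution most. GENCODE gives it as a processed pseudogene of 339 bases (chr13:51202727-51203065, −, mm10), and 337 of those bases (99.4%) were identical to the H2A genes Hist2h2aa1 and Hist2h2aa2. Against Hist2h2aa1 the differences are C120T and T216G, with the pseudogene's base first and positions counted from 1 at the 5′ end of its transcript. Hist2h2aa1 (chr3:96245497-96246082, +) was not among the rows of the table, and Hist2h2aa2 (chr3:96239749-96240276, −) had 3 UMIs. RefSeq draws the locus as a transcribed pseudogene of 2983 bases under the name H2af-ps2. Whether the 5482 UMIs came from the pseudogene or from these H2A copies cannot be told apart in the table, and the row is therefore given apart from the 25. The windows below, bases 100 to 236 of the pseudogene and the matching coding stretch of Hist2h2aa1, show how little separates them, with the differing bases in capitals.
Hist1h2al (chr13:51202830-51202966, −): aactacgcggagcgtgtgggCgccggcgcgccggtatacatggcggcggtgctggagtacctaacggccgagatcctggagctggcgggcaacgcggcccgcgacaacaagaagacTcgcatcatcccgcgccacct
Hist2h2aa1 (chr3:96245695-96245831, +): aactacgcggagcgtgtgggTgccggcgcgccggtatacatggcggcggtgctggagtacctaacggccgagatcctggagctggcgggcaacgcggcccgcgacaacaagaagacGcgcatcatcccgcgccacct

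To ask which histone genes follow the cell cycle, cells were classed by 38 S-phase and 51 G2/M genes, none of them a histone, on counts thinned to 1000 UMIs. A class was high above the 75th percentile of a list and low at or under the 50th of both. This gave 1267 low-cycle cells (median 3544 UMIs), 862 intermediate (4000), 616 S-high (4362), 165 high for both (4894) and 666 G2/M-high (4976). The classes are ranges of a score and not phases: 586 cells (16.4%) lay within 1 UMI of a high cut and 1248 (34.9%) within 1 UMI of a low cut. Of 8 further S-phase genes, 8 were higher in S-high than in low-cycle cells (median ratio 6.17), but so were 8 of 8 further G2/M genes (median 5.24), and these reached a median of 24.4 in G2/M-high cells. A gene is called higher or lower where the whole interval of its CPM ratio lies above 1.5 or below 0.667. Cells of the high classes were deeper, and the part of depth in the ratios was not tested beyond the alternatives given at the end.

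In S-high cells a group of H2A genes and H1 genes stood well above low-cycle cells, while the most abundant H2B gene stood below. Of the 36 genes, 14 were higher and 1 lower, where 4.6% of all 12477 genes tested were higher and 1.7% lower. These 14 were 10 of the 25 replication-dependent genes, 3 of the 10 variants and Hist1h2al, and the median ratio was 2.37 for the replication-dependent genes, 1.42 for the variants and 0.949 for all genes tested. Without the 5% deepest cells the higher genes numbered 9. With a threshold of 2 in place of 1.5, 7 were higher and 1 lower (2.75% and 0.441% of all genes), and by the ratio alone, whatever its interval, 22 were higher and 4 lower (11.9% and 15.9% of all genes).

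Hist1h2al was at 44.97 CPM in low-cycle cells, 298 in intermediate, 602 in S-high, 677 in both-high and 375 in G2/M-high cells. Its S-high to low-cycle ratio was 13.4 (11.7 to 15.4). At 1000 UMIs per cell, 4.42% of low-cycle cells held a UMI of it, 34.9% of S-high and 40% of both-high cells.

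Hist1h2ak, an H2A gene of the large cluster on chromosome 13, followed the same order at a lower level, with 3.09 CPM (16 UMIs) in low-cycle cells, 20.5 in intermediate, 48.0 (147 UMIs) in S-high, 56.7 in both-high and 31.3 in G2/M-high cells. Its S-high ratio was 15.6 (9.27 to 27.9). Hist1h2an went from 1.74 CPM (9 UMIs) to 24.5 (75 UMIs), a ratio of 14.1 (7.05 to 32.1). Both were higher in each of 11 other settings of filters and classes, as was Hist1h2al.

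Other H2A genes were higher on few UMIs. Hist1h2ab had 28 UMIs in S-high and 3 in low-cycle cells, a ratio of 15.8 (4.88 to 81.2), and Hist1h2ah 17 and 1, a ratio of 28.8 (4.51 to 1203). Hist2h2ab had 10 and 2 UMIs, Hist1h2ap 8 and 1, Hist1h2ae 21 and 8, and Hist1h2aa 42 and 28 (ratio 2.54, 1.54 to 4.26). The call was kept in 6 of the 11 other settings for Hist1h2aa, 8 of 11 for Hist1h2ae, 9 of 10 for Hist2h2ab and 4 of 6 for Hist1h2ap, and in all 10 that gave a value for Hist1h2ab and Hist1h2ah. In all, 8 of the 14 replication-dependent H2A genes were higher.

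Of the 4 linker histone genes, 2 were higher. Hist1h1e was at 6.75 CPM in low-cycle and 25.8 in S-high cells, a ratio of 3.82 (2.54 to 5.87), and Hist1h1b, encoding H1.5, had 9 and 19 UMIs, a ratio of 3.58 (1.54 to 8.97), a call kept in 8 of the 11 other settings. Hist1h1c, the most abundant, was at 44.4 and 68.3 CPM, a ratio of 1.54 whose interval includes 1.5.

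Of the H2B, H3 and H4 genes, 0 of 7 were higher and 1, Hist1h2bc, was lower. Hist1h2bc was at 104 CPM (537 UMIs) in low-cycle, 63.1 in intermediate, 38.9 (119 UMIs) in S-high, 26.9 in both-high and 48.8 in G2/M-high cells, and the S-high ratio was 0.375 (0.305 to 0.459), lower in all 11 other settings. Hist3h2ba and Hist3h2a, neighbours on chromosome 11, were at 28.4 and 79.1 CPM in low-cycle and 16.3 and 52.0 in S-high cells, ratios of 0.576 and 0.657 that were not past the threshold. The H4 genes Hist1h4i and Hist1h4h had ratios of 0.811 and 0.912. Hist1h3c had 7 UMIs in S-high and 5 in low-cycle cells, a ratio of 2.37 (0.648 to 9.47), too few to show a difference.

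These opposite courses nearly cancel in the sum. All 25 replication-dependent genes together were at 304 CPM in low-cycle and 351 CPM in S-high cells, a ratio of 1.16 (1.07 to 1.25), with H1 at 1.89 (1.60 to 2.23), H2A at 1.81 (1.60 to 2.05) and H2B at 0.420 (0.354 to 0.496). With Hist1h2al counted among them the ratio is 2.74 (2.58 to 2.90). The share of cells with a replication-dependent UMI at equal depth was 25.2% in low-cycle, 27.4% in S-high and 40.6% in both-high cells.

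**Figure D1:**
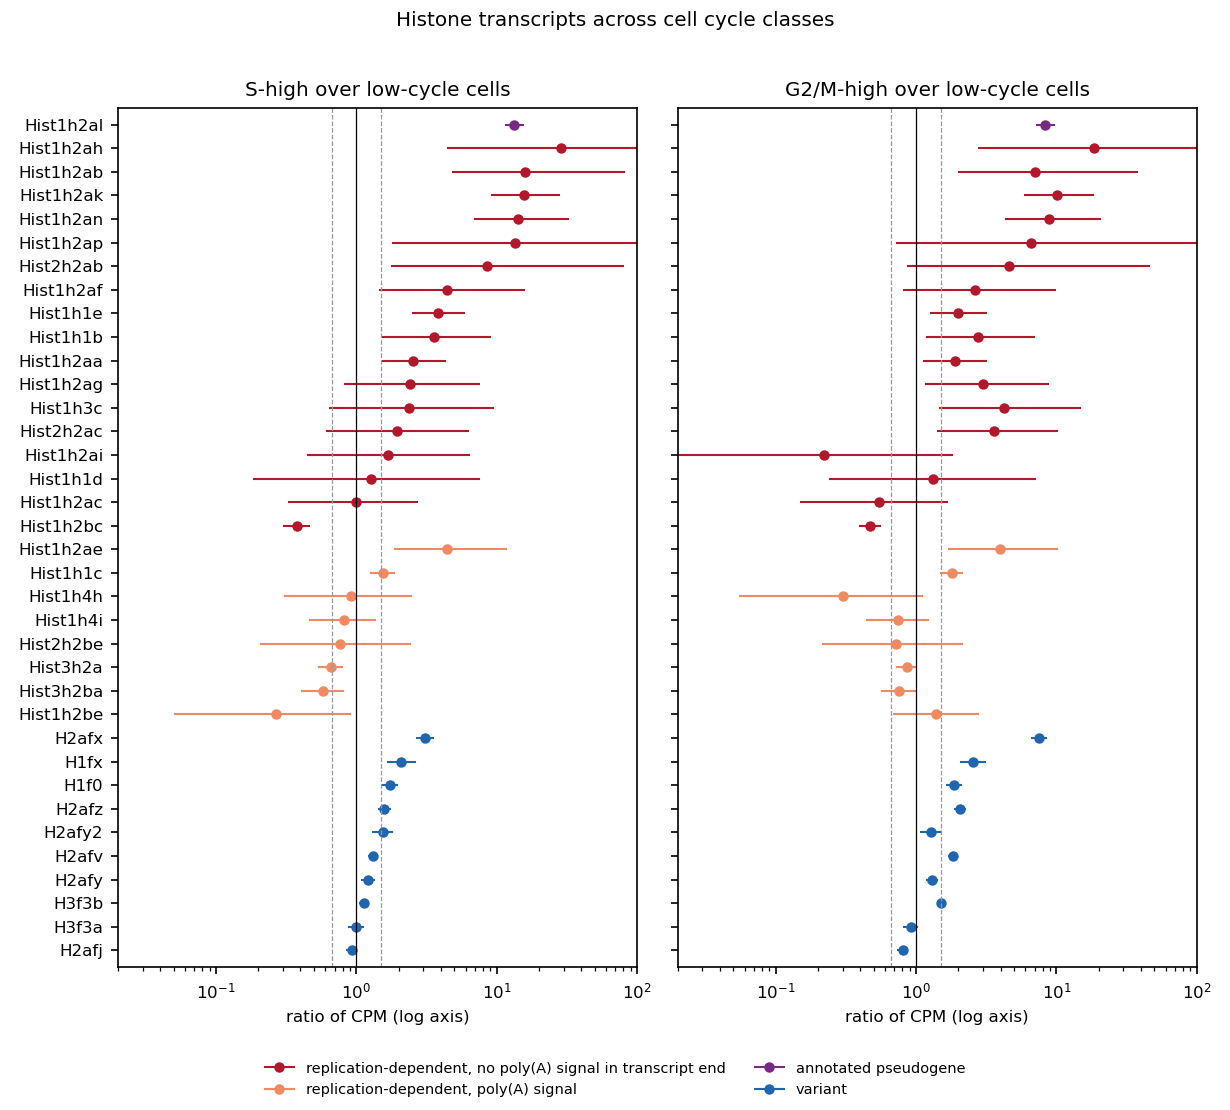
Ratio of CPM (log axis) of each histone gene with at least 20 UMIs, S-high over low-cycle cells and G2/M-high over low-cycle cells, with 95% counting intervals, which are cut where they run past the axis; colours mark replication-dependent genes with and without an annotated poly(A) signal, the pseudogene and the variants, the solid line is a ratio of 1 and the dashed lines are the thresholds of 1.5 and 0.667. Hist1h2al, Hist1h2ak and Hist1h2an lie far to the right in both, Hist1h2bc lies to the left at 0.375 and 0.471, and H2afx stands out among the variants in G2/M-high cells at 7.53.

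The replication-dependent genes were also counted by the annotated 3′ end, as a description without a test. Of the 8 replication-dependent genes with a poly(A) signal, 1 was higher and 0 lower in S-high cells (median ratio 0.791), and of the 17 without, 9 were higher and 1, Hist1h2bc, lower (median 3.58). Summed, the 8 were at 171 CPM in low-cycle and 156 CPM in S-high cells, a ratio of 0.912 (0.814 to 1.02), and the 17 at 133 and 195 CPM, a ratio of 1.47 (1.32 to 1.65), neither past the threshold. Hist1h2bc weighs heavily in the 17: the other 16 were at 28.9 and 157 CPM, a ratio of 5.41 (4.49 to 6.54), but leaving it out was chosen after its values were seen and supports no division by 3′ end. A split by the length of the annotated 3′ untranslated region, at 300 bases and was also chosen afterwards. Of 9 genes with a longer one, 1 was higher and 1 lower (median 0.811), and of 16 with a shorter one, 9 were higher and 0 lower (median 3.99). The split rests on gene models, several of which stop at the coding sequence.

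In G2/M-high cells 12 of the 36 genes were higher than in low-cycle cells and 1, Hist1h2bc, was lower, where 4.78% of all genes were higher and 3.56% lower. They were 6 of the 25 replication-dependent genes (median ratio 1.99), 5 of the 10 variants (median 1.66) and Hist1h2al; the median over all genes was 0.925. With a threshold of 2, 7 were higher and 0 lower (2.97% and 0.93% of all genes), and by the ratio alone 22 were higher and 4 lower (10.9% and 19.9%). Hist1h2al had a ratio of 8.34 (7.26 to 9.61), Hist1h2ak of 10.1 (5.99 to 18.3) and Hist1h2an of 8.92. Hist1h1c was at 79.5 CPM against 44.4, a ratio of 1.79 (1.51 to 2.13), and Hist1h2bc at 48.8 against 104, a ratio of 0.471 (0.397 to 0.556). The call of Hist1h1c was kept in 8 of the 11 other settings, that of Hist1h2ae (24 UMIs against 8) in 4 of 11 and that of Hist1h2ab (16 against 3) in 8 of 10. In the 165 cells high for both lists, 12 genes were higher and 1 lower, beside 4.42% and 1.54% of all genes.

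Set directly against S-high cells, G2/M-high cells had 2 higher and 0 lower genes of the 36, where 1.66% of all genes were higher and 1.14% lower. They were H2afx, with a ratio of 2.46 (2.25 to 2.68), and the H2B gene Hist1h2be, with 20 UMIs against 3 and a ratio of 5.18 (1.54 to 27.2), a call kept in 1 of the 11 settings. Hist1h2al had a ratio of 0.623, which was not past the threshold.

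To place each gene within the cycle, the 3576 cells were arranged by the angle between the ranks of their G2/M and S counts and cut into 8 sectors of 45 degrees, numbered from low in both lists (sector 1) through S high (3 and 4), both high (5) and G2/M high (6 and 7). The 8 S-phase genes outside the class lists were highest in sector 4, as were Slbp (79.7 CPM), Npat (62.2 CPM), the activator of histone gene transcription, and Chaf1b (66.0 CPM), a subunit of the chaperone that loads histones on new DNA. The interval of Chaf1b overlaps that of sector 3, that of Slbp overlaps sectors 3 and 5, and that of Npat overlaps sectors 2, 3 and 5.

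Hist1h2al was at 46.3, 51.8, 177, 519, 674, 360, 210 and 56.9 CPM in sectors 1 to 8. Its interval in sector 5 (648 to 702) lay above that in sector 4 (490 to 548). Hist1h2ak, Hist1h2an, Hist1h2ab, Hist1h2ah, Hist1h1e and Hist1h1b were also highest in sector 5, Hist1h2ak with 50.2 CPM against 2.7 in sector 1, but each overlapped its interval of sector 4, so a later peak than that of the S-phase genes was not resolved for them. Hist1h2bc and Hist3h2a were at 107 and 86.2 CPM in sector 1 and at 39.9 CPM each in sector 3, with sectors 3 and 4 overlapping. H2afx, H2afz, H1f0 and the centromeric H3 gene Cenpa were highest in sector 6 (498, 420, 189 and 660 CPM), of which H2afx alone did not overlap a neighbouring sector, and H2afv and H3f3b in sector 7 (638 and 735 CPM), each within the interval of sector 6. Sector 5 mixes S and G2/M signal, so its place between them is an order of scores and not a time.

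**Figure D2:**
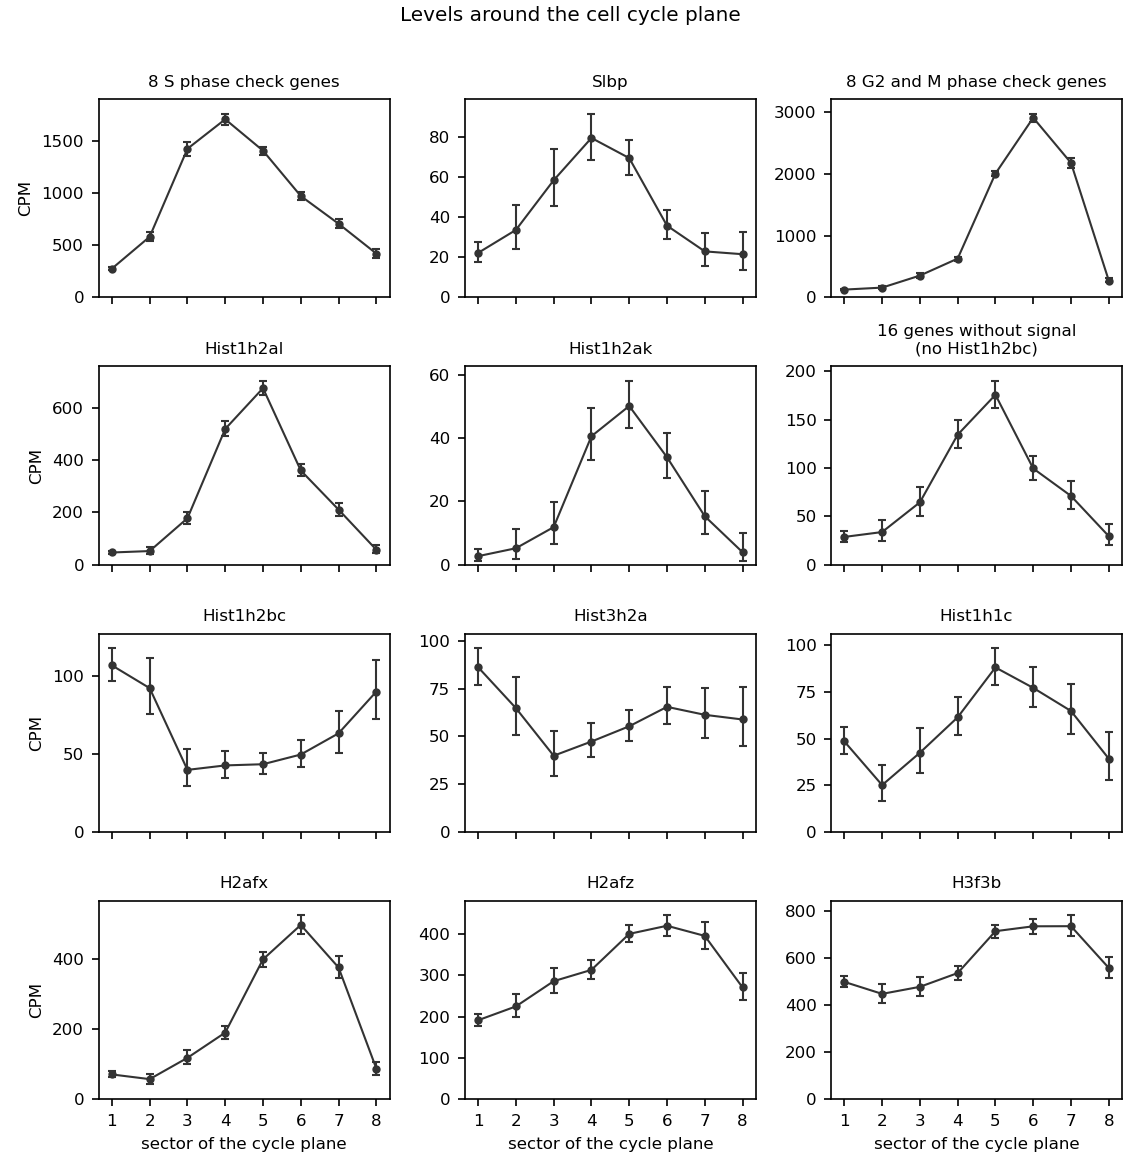
CPM (linear axes from 0, a scale for each panel) of selected histone genes, Slbp, the further S-phase and G2/M genes and the 16 genes without a poly(A) signal other than Hist1h2bc, across the 8 sectors of the angle between the ranks of the G2/M and S counts, with 95% Poisson intervals; sector 1 is low in both lists, 3 and 4 are high in S genes and 6 and 7 in G2/M genes. Hist1h2al is highest in sector 5 at 674 CPM, H2afx in sector 6 at 498 CPM, and Hist1h2bc is highest in sector 1 at 107 CPM.

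At 1000 UMIs per cell few cells held several UMIs of Hist1h2al and the 16 genes without a poly(A) signal other than Hist1h2bc, of which 9 were higher in S-high cells. Of the 3576 thinned cells, 2792 (78.1%) had 0 of these UMIs, 477 had 1, 196 had 2 and 111 had 3 or more. A count of 0 at this depth is no sign that the RNA was absent, since Hist1h2al was seen in 17.5% of thinned cells and in 35.9% of cells at full depth.

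Some of the genes that make and handle histone mRNA were also higher in S-high cells. Of 15 genes of histone transcription and 3′ end processing with at least 50 UMIs, 5 were higher and 0 lower (median ratio 1.36), beside 4.6% and 1.7% of all genes. Slbp, which binds the stem loop, was at 24.1 CPM in low-cycle and 83.01 in S-high cells, a ratio of 3.44 (2.77 to 4.30). The others were Lsm11 (3.32), a protein of the U7 particle that directs the cut after the stem loop, Casp8ap2 (3.21), a component of histone locus bodies, Eri1 (2.80), the exonuclease that trims histone mRNA, and Npat (2.25, 1.81 to 2.81). The lowest were Sympk (0.965), Cpsf3 (1.001) and Gon4l (1.02); Sympk and Cpsf3 encode parts of the cleavage machinery shared with polyadenylation. In G2/M-high cells 1 of the 15, Eri1, was higher (1.80), where 4.78% of all genes were higher, so that count does not set the list apart.

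Chaperones that carry new histones to replicated DNA were higher more broadly, beside the same 4.6% of all genes in S-high and 4.78% in G2/M-high cells. Of 11, 8 were higher in S-high cells (median 4.01), led by Asf1b (3.86 CPM in low-cycle and 43.8 in S-high cells, a ratio of 11.3) and by Chaf1b (8.63) and Chaf1a (7.78), the large subunits of CAF-1; the lowest were Asf1a (1.21), Rbbp4 (1.36) and Ipo4 (1.37). In G2/M-high cells 5 of the 11 were higher, led by Asf1b (12.2), Chaf1a (3.18) and Nasp (2.96), a carrier of H3 and H4. Of 8 general chaperones, 3 were higher in S-high cells: the FACT subunits Supt16 (1.90) and Ssrp1 (1.78), and Anp32b (1.69).

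Genes that place H3.3 and H2A.Z were counted in the same way. In S-high cells 4.6% of all genes were higher and 1.7% lower, so a count of 0 in a short list does not set it apart. Of 6 genes of H3.3 deposition, 0 were higher or lower in S-high cells (median 0.949), from Hira, of the complex that loads H3.3 at active genes, at 1.39 to its partner Ubn2 at 0.740. Of 7 genes of H2A.Z exchange, 0 were past the threshold in S-high cells (median 0.991) and 1 in G2/M-high cells, Anp32e (1.58), which removes H2A.Z. In G2/M-high cells 4.78% of all genes were higher, so 1 gene in so short a list does not set it apart either. For the centromere, Cenpa was at 73.7 CPM in low-cycle, 94.1 in S-high and 667 in G2/M-high cells, a G2/M-high ratio of 9.04 (8.12 to 10.1). The loading factor gene Oip5 had a G2/M-high ratio of 17.4 (9.71 to 34.5).

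Variants formed a graded set. H3f3b, one of both genes for H3.3, was the most abundant histone gene at 603 CPM (10482 UMIs) and ranked 213 among all genes. It was followed by H2afv (481 CPM), encoding H2A.Z.2, H2afj (371), an H2A close to the canonical form, and H2afz (317), encoding H2A.Z.1, whose interval overlaps that of Hist1h2al. H2afy (260), encoding macroH2A1, and H2afx (251), whose product is phosphorylated at DNA breaks, overlapped each other. H3f3a (162), the other H3.3 gene, H1f0 (146), the linker histone known from quiescent and differentiated cells, H2afy2 (85.9), encoding macroH2A2, and H1fx (51.6) completed the order.

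In low-cycle cells variants were the bulk of captured histone UMIs, with 2120 CPM against 304 CPM for the replication-dependent genes and 44.97 CPM for Hist1h2al. Priming on poly(A) misses mRNA without a tail, so the make-up of all histone RNA was not measured. They were at 2713 CPM in S-high cells, a ratio of 1.28 (1.24 to 1.32), and at 3457 CPM in G2/M-high cells, a ratio of 1.63 (1.59 to 1.67).

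H2afx had the widest range. It was at 70.8 CPM in low-cycle, 189 in intermediate, 217 in S-high, 440 in both-high and 534 in G2/M-high cells, ratios of 3.07 (2.70 to 3.50) for S-high and 7.53 (6.74 to 8.44) for G2/M-high. It was highest where Cenpa was highest, one sector later than Hist1h2al. Both calls were kept in all 11 settings.

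Of the linker variants, H1fx was at 29.3 CPM in low-cycle, 61.1 in S-high and 74.5 in G2/M-high cells, the last with a ratio of 2.54 (2.08 to 3.11). H1f0 was at 100 CPM in low-cycle, 173 in S-high and 187 in G2/M-high cells, ratios of 1.73 (1.53 to 1.95) and 1.87 (1.67 to 2.09). The S-high call of H1f0 was kept in 4 of the 11 settings.

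Both H2A.Z genes were higher in G2/M-high cells. H2afz was at 203 CPM in low-cycle and 419 in G2/M-high cells, a ratio of 2.06 (1.91 to 2.23), and H2afv at 348 and 634, a ratio of 1.82 (1.71 to 1.94). H2afv supplied 63.2% of their joint UMIs in low-cycle, 58.8% in S-high and 60.2% in G2/M-high cells.

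The remaining variants were not past the threshold in either comparison. H3f3b was at 504 CPM in low-cycle and 756 in G2/M-high cells, while H3f3a was at 166 and 152. The share of H3.3 UMIs from H3f3b was 75.2% in low-cycle, 77.6% in S-high and 83.2% (82.0 to 84.5) in G2/M-high cells, so the intervals of the first and last do not overlap. H2afj was at 410 CPM in low-cycle, 380 in S-high and 328 in G2/M-high cells. Its G2/M-high ratio, 0.801, was the lowest of the 10 variants. H2afy and H2afy2 had G2/M-high ratios of 1.29 and 1.27.

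**Figure D3:**
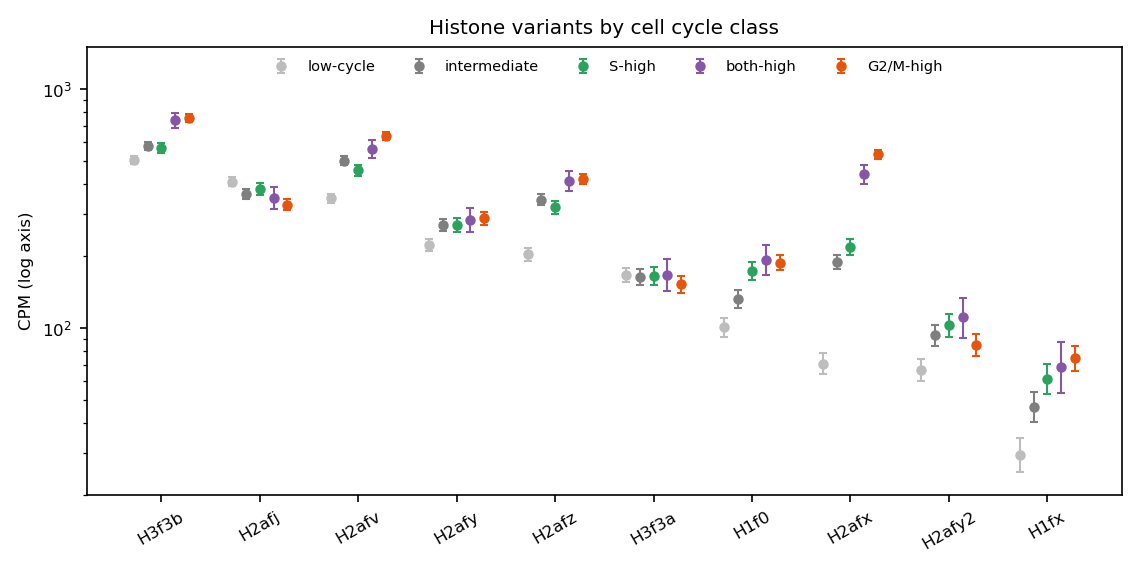
CPM (log axis) of the 10 variant genes in each of the 5 cycle classes, with 95% Poisson intervals. H2afx goes from 70.8 CPM in low-cycle to 534 CPM in G2/M-high cells, H3f3b is highest in each class, and H2afj goes from 410 to 328 CPM.

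Clustering with all histone genes and the listed histone pathway and cycle genes held out gave 9 clusters. The clusters were still not independent of the cycle. In cluster 3, 48 of the 51 G2/M genes were higher, and in cluster 4, 36 of the 38 S-phase genes. A cluster of 32 cells was neuron-like by its markers (11 of 12 measured immature neuron markers higher), a kind of cell that should not divide. The 8 further S-phase genes summed to 312 CPM there and the 8 further G2/M genes to 276 CPM. Low-cycle cells had 329 and 142 CPM, so the cluster was not shown to be free of cycling cells. Of its 29 cells that could be thinned, 22 were low-cycle, 6 intermediate and 1 S-high. Its median depth was 1821.5 UMIs against 3869 over all cells, and it held 83423 UMIs in all, so genes with few UMIs could not be read there. The same 32 cells formed a cluster in the other clusterings tried.

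In these neuron-like cells 4 of the 36 genes were higher than in all other cells and 0 were lower, where 5.75% of all genes were higher and 1.06% lower. All 4 were replication-dependent. Hist3h2ba was at 467 CPM (39 UMIs) against 20.4, a ratio of 22.9 (16.03 to 31.97), with UMIs in 21 of the 32 cells and at most 4 in 1 cell. Hist1h2bc was at 228 CPM (19 UMIs) against 64.8, a ratio of 3.52 (2.11 to 5.52), with 6 of its UMIs in 1 cell. Hist1h1c was at 204 CPM (17 UMIs) against 61.3, a ratio of 3.33 (1.93 to 5.35), with 8 in 1 cell, and Hist3h2a at 204 CPM (17 UMIs) against 61.7, with a ratio between 1.92 and 5.31, spread over 13 cells. The 25 genes together were at 1163 CPM against 319, a ratio of 3.64 (2.95 to 4.45), and the H2B genes at 695 CPM (58 UMIs) against 89.8, a ratio of 7.75 (5.85 to 10.1). These sums restate the 4 genes: they held most of the 97 UMIs, and all H2B UMIs were from Hist3h2ba and Hist1h2bc. The median ratio of the 25 genes was 0, but most of them had too few UMIs to be read at this depth. Whether the class rose beyond the 4 genes could therefore not be judged. The 36 symbols under the minimum had 4 UMIs there, a ratio of 3.46 (0.935 to 8.97), too few to show a difference.

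Hist1h2al, by contrast with the S-high comparison, was not past the threshold in either direction there. It had 12 UMIs, 9 of them in 1 cell, at 144 CPM, a ratio of 0.455 (0.235 to 0.796) to the others. The 16 genes without a poly(A) signal other than Hist1h2bc had 5 UMIs, a ratio of 0.654 (0.212 to 1.53), too few to show a difference. At 1000 UMIs per cell, Hist3h2ba was seen in 13 of 29 neuron-like cells (44.8%, 26.4 to 64.3) and Hist1h2al in 1 (3.45%, 0.0873 to 17.8). In low-cycle cells, at a median of 3544 UMIs against 2103 for the 29, Hist1h2al was seen in 4.42%, so the low-cycle share lay within the interval of the neuron-like one, and the part of free RNA in it was not tested.

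Outside the neuron-like cells, Hist3h2ba was higher in 2 more clusters, cluster 5 (222 cells, 65.3 CPM, ratio 3.14) and cluster 6 (200 cells, 85.8 CPM, ratio 4.38). Cluster 1, which held 649 of the 1267 low-cycle cells, had it at 14.4 CPM, a ratio of 0.569 (0.428 to 0.745). The low-cycle level of Hist3h2ba given above therefore does not hold for each cluster. Cluster 5 had Myt1 and Dll3 among its leading genes. There 5 of 8 intermediate progenitor markers and 1 of 12 immature neuron markers were higher. Cluster 6 was led by Ndrg1 and Slc16a3, genes of the hypoxia response, and 7 of 8 astrocyte markers were also higher there. In cluster 6 Hist1h2al was lower, at 174 CPM, a ratio of 0.54, and H1f0 higher, at 265 CPM, a ratio of 1.89. Cluster 4, whose leading genes were S-phase genes such as Ccne2, had Hist1h2al at 706 CPM and Hist1h2ak among its 5 leading genes. Hist1h2ak was held out of the clustering, but this cluster follows the cycle.

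Of the 10 variants, 0 were past the threshold in neuron-like cells, and their sum had a ratio of 0.865 (0.748 to 0.9949). H3f3b was at 779 CPM (65 UMIs) and H3f3a at 288 CPM (24 UMIs, ratio 1.78, 1.14 to 2.66), while H2afx was at 108 CPM (9 UMIs, ratio 0.429, 0.196 to 0.814). H2afy supplied 12 of 25 macroH2A UMIs (48%, 27.8 to 68.7) against 75.2% over all cells. Of the 6 H3.3 deposition genes, 1 was higher, Atrx (named after its values were seen), where 5.75% of all genes were higher. Atrx, which loads H3.3 at repeats with DAXX, was at 875 CPM (73 UMIs) against 403, a ratio of 2.17 (1.70 to 2.74). A count of 1 in so short a list does not set H3.3 deposition apart.

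**Figure D4:**
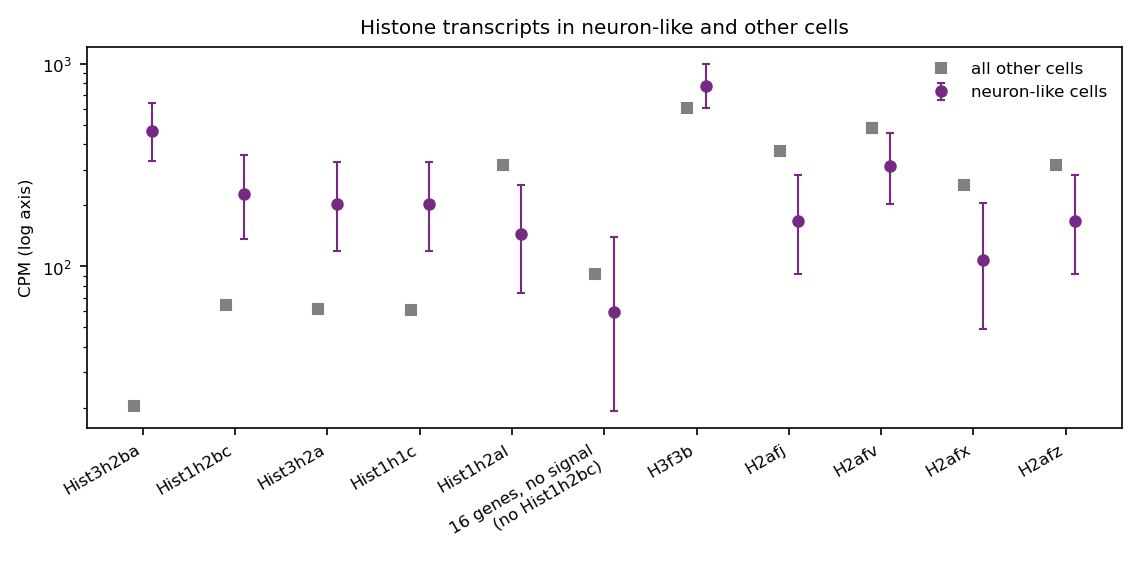
CPM (log axis) of selected histone genes, and of the 16 genes without a poly(A) signal other than Hist1h2bc, in the 32 neuron-like cells (circles, with 95% Poisson intervals) and in all other cells (squares). Hist3h2ba stands at 467 CPM in neuron-like cells against 20.4 in the others, whereas Hist1h2al stands at 144 CPM against 316.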

How the data were processed

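The authors deposited 1 table of UMI counts per gene and barcode, not normalized; build mm10 is given per the submitters' processing notes, and any aligner, counter and annotation were not given in the sources used here. Per the labels' protocols, libraries were made by Drop-seq and sequenced on a NextSeq500. Barcodes carry no sample, so the table was analysed as 1 sample, without p-values or a replicate count model. Kept cells had at least 500 genes and at most 10% mitochondrial UMIs. No doublet caller was run; 1 alternative left out the 5% deepest cells. Levels (CPM) are summed UMIs scaled to 1000000. Cells with at least 1000 UMIs were thinned at random (seed 1) for classes and shares. Scanpy 1.11.5 and leidenalg 0.10.2 clustered the cells (2000 variable genes, 30 components, 15 neighbours, resolution 0.8, seed 0). Histone, mitochondrial and ribosomal protein genes and the listed histone pathway and cycle genes were held out. A cluster was named only from marker lists. The gene annotation was GENCODE M21 and promoters were RefSeq's. Other software was matplotlib 3.10.9, biopython 1.88, scipy 1.17.1, numpy 2.4.6 and pandas 2.3.3 under Python 3.11.15. The ratio intervals were tested only on simulated independent Poisson counts, which leave out UMIs gathered in single cells. Any histone gene with at least 20 UMIs could be named; of each pathway list, the 3 highest and 3 lowest ratios among genes with at least 50 UMIs, and Slbp, Npat and Cenpa; Eri1, Atrx and leading genes of clusters were named after their values were seen. The members, gene lists and classes were chosen with earlier results of these data known. Alternatives varied the filters, thinning, classes, fold and clustering. The count over the centromere list is not reported here.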

Additional observations from a re-analysis of the deposited data

How the results depend on the processing

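No paired analysis was possible because the barcodes carry no sample or replicate number, and the groups compared are classes of cells. Over the main results and alternatives, 74 values stayed within the error or within 1.5 times the count and 23 moved. A reversal was looked for only in ratios past the threshold in the main setting, and 0 were found. Levels, shares, counts and the ratios within the threshold could not be labelled reversed. The replication-dependent S-high ratio, 1.16 in the main setting, thus counts as moved although it crossed 1. The cause of a move was not tested unless the alternative itself sets it. The replication-dependent S-high ratio was 0.983 with cuts at the 67th and 33rd percentile and 1.04 with scanpy's phase calls, and the G2/M-high ratio 1.03 with those cuts and 1.02 at the 90th and 25th. The variant S-high ratio was 1.24 with a 5% mitochondrial limit, 1.204 without the 5% deepest cells, 1.37 at the 90th and 25th and 1.22 with scanpy's calls, and the G2/M-high ratio 1.78 and 1.58 under the last pair. The variant level was 2759 CPM with the 5% mitochondrial limit. The share of cells with a replication-dependent UMI was 25.3% with that limit, 42.4% at 2000 UMIs, 25.4% with another thinning seed and 25.4% without barcodes that end in an unread base. Genes past the threshold, higher and lower together, numbered 8 (S-high) and 7 (G2/M-high) at a fold of 2, and 26 and 26 by the ratio alone. Counting Hist1h2al among the replication-dependent genes, chosen after seeing the data, gave 638 CPM, 38.1% of cells, and ratios of 2.74 and 2.06. Depth limits the genes with few UMIs: those with under 10 in low-cycle cells have wide intervals.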
